A study of Homo sapiens with 12 samples.

Results

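The JAK, STAT and feedback genes of cytokine signalling were examined in 3 human lung cancer lines that carried a ZNF263 vector or a control vector. The 10 genes were chosen by symbol from the 20003 genes of the expression table: the kinases JAK1 and JAK2, the transcription factors STAT3, STAT5A, STAT5B and STAT6, the feedback inhibitors SOCS2, SOCS3 and CISH, and the kinase PIM1. RNA-seq libraries were compared from PC9, HCC827 and H1975, lines of non-small-cell lung cancer. The titles append OR to each line's name, which the labels leave unexplained, so whether these are derivatives of the parental lines selected under osimertinib is not known here, and PC9, HCC827 and H1975 below mean the cells so titled. In each line, cells overexpressing the KRAB zinc finger transcription factor ZNF263 were set against cells with the control vector, with 2 libraries per group and 12 libraries in all. Cells of every group, controls included, had been exposed to osimertinib, an inhibitor of mutant EGFR, in steps. The sources used here do not give the dose, the duration, the promoter of the vector or whether a line was 1 clone. Nothing in the labels ties the paired libraries of a group to separate cultures. The p-values below therefore reflect the scatter of libraries, which may be technical.

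Cytokine receptors have no kinase activity of their own and carry JAK kinases on their inner tails. When a ligand brings receptor chains together, the JAKs phosphorylate each other, the receptor and STAT proteins, which then pair, enter the nucleus and bind DNA. STAT5 switches on CISH, SOCS2 and PIM1, STAT3 switches on SOCS3 and PIM1, and CISH and the SOCS proteins in turn block the receptor or the kinase. Lung epithelial cells use STAT3 downstream of the interleukin-6 family and STAT6 downstream of interleukin-4 and interleukin-13, and EGFR can also lead to phosphorylation of STAT3 and STAT5. Messenger RNA does not show phosphorylation, so activity of the pathway was not measured here.

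STAT proteins are known to bind promoters of feedback genes, and CISH is the textbook case. RefSeq promoter windows of GRCh38.p14 were given for 9 of the 10 genes (no window for SOCS2), in 17 windows of 300 bases, from 250 before the start site to 50 after it. The letters TTCNNNGAA, the core that STAT5 dimers prefer and the same on both strands, were found in 1 of the 9 genes, CISH, with 4 matches. The windows follow RefSeq start sites, which can differ from the gene starts given below. Neither SOCS3 window (chr17:78360876-78361175 and chr17:78359618-78359917) holds the gene's start at 78360077, so matches beside that start would have been missed. The only STAT6 window (chr12:57110240-57110539) lies far from its gene start at 57132139. The STAT5B window (chr17:42276342-42276641) does not reach the start at 42276707, and that of PIM1 ends just before the start at 37170203. Among all 35114 promoter windows, 7.66% held the letters at least once and 0.456% held them 2 or more times. The windows of CISH (chr3:50611725-50612024, minus strand) and of PIM1 (chr6:37169902-37170201, plus strand), a STAT5 target whose window has no match, are shown with the matches in capitals.
CISH: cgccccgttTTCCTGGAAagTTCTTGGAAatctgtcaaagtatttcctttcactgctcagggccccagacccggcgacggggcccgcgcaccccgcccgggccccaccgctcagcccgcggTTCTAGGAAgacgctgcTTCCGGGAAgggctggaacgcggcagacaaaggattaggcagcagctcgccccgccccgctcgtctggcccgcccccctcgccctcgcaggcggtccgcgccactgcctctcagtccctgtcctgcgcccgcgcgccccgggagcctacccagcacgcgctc
PIM1: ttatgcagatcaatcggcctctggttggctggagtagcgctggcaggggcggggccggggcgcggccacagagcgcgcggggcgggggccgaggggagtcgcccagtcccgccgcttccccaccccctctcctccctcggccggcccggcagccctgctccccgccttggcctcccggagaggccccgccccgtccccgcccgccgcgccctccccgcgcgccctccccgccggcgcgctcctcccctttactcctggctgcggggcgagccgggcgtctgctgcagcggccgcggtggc
The matches in CISH read TTCCTGGAA, TTCTTGGAA, TTCTAGGAA and TTCCGGGAA and began at -241, -230, -129 and -112 from the start site. The letters GGAGGAGG, part of the G-rich sequence that ZNF263 is known to bind, or their complement were found in 1 of the 9 genes, in 1 window of JAK1, and in 10.9% of all windows. A match describes letters only, and no binding was measured here.

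The targeted gene was higher in the ZNF263 cells of every line. ZNF263 (chromosome 16, 3263800 to 3301401, GRCh38, plus strand) had 39.3 and 39.0 FPKM in ZNF263 cells of PC9, against 9.55 and 9.11 FPKM in its control cells. In HCC827 its level was 19.6 and 19.8 FPKM in ZNF263 cells, against 13.2 and 11.8 FPKM in control cells, and in H1975 it was 39.1 and 39.8 FPKM in ZNF263 cells, against 10.2 and 9.63 FPKM in control cells. FPKM is the number of fragments scaled by gene length and library size. The log2 changes (ZNF263 minus control, on log2 of FPKM plus 1) were 1.96, 0.62 and 1.89, each ± 0.061 (SE), so HCC827 had the smallest rise. Each library held 10672 to 10997 genes at 1 FPKM or more.

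The lines differed in the markers of their labelled cell type. All 9 epithelial markers examined reached 1 FPKM in HCC827 and 8 did in H1975, but in PC9 only CDH1, KRT8 and KRT18 did, and KRT19 was listed at 0 in both PC9 control libraries. The summed level of the 9 markers was 1498 to 1526 FPKM in ZNF263 cells of H1975, against 2454 to 2505 FPKM in its control cells. It was 3441 to 3623 FPKM in ZNF263 cells of PC9, against 2259 to 2283 FPKM in its control cells, and 3023 to 3114 FPKM in ZNF263 cells of HCC827, against 2904 to 3260 FPKM in its control cells. In H1975, 6 of the 9 markers fell and 1, KRT8 (0.24), rose at a limma adjusted p under 0.05, beside 64.2% of all genes called. EPCAM (-2.79), CLDN7 (-2.73), CLDN4 (-2.37) and CDH1 (-2.23) fell the most in log2 there. In PC9, CDH1 (0.99), KRT18 (0.65), KRT8 (0.62) and NKX2-1 (0.35) rose. In HCC827, 2 markers rose and 1 fell. The sum over 8 fibroblast markers was 176 to 180 FPKM in ZNF263 cells of H1975, against 30.9 to 34.2 FPKM in its control cells, with 3 of 8 markers at 1 FPKM or more. COL1A2 alone had 166 ± 3.13 FPKM in those ZNF263 cells and 14.6 ± 0.770 FPKM in the control cells (SD, n = 2 each), and of the 5 fibroblast markers tested there 3 were higher and 2, COL1A1 (-0.71) and LUM (-1.33), were lower. In the other lines the fibroblast sums reached at most 23.6 FPKM in ZNF263 cells and 22.2 FPKM in control cells. The sum over 6 immune markers, mostly CD68, was 79.2 to 84.9 FPKM in ZNF263 cells of H1975, against 85.0 to 85.5 FPKM in its control cells. Within that sum CD14 had 20.2 ± 2.09 FPKM in ZNF263 cells and 3.09 ± 1.23 FPKM in control cells (2.40, limma adjusted p = 3.15e-07), and CD68 had 61.4 ± 2.04 FPKM in ZNF263 cells and 82.0 ± 1.52 FPKM in control cells (-0.41, adjusted p = 0.000159). PTPRC and CD3E were under 1 FPKM in all libraries, and the 3 endothelial markers together stayed under 1 FPKM. The part of these shifts in the changes of the JAK and STAT genes was not tested.

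Of the 10 genes, 8 changed in H1975, 3 in HCC827 and 1 in PC9 between ZNF263 and control cells, at a Benjamini-Hochberg adjusted p under 0.05 in limma. The 3 that rose in H1975 were JAK1, STAT5A and CISH, and the 5 that fell were STAT5B, STAT6, SOCS2, SOCS3 and PIM1. In HCC827 STAT5A rose, and SOCS2 and PIM1 fell. In PC9 STAT6 rose. Over all genes tested, 64.2% were called in H1975 (32.1% higher and 32.1% lower in ZNF263 cells), 19.5% in HCC827 (13% higher and 6.44% lower) and 11.3% in PC9 (7.21% higher and 4.12% lower), so that the shares of 80%, 30% and 10% among these genes lay near the background and say little about the genes as a set. The median log2 change of the 10 genes was -0.19 in H1975, 0.068 in HCC827 and 0.0058 in PC9, against 0.0025, 0.045 and 0 over all genes. Of the genes called in HCC827, 66.9% were higher in ZNF263 cells, a share that became 47.9% under median-of-ratios scaling and 50.3% after quantile normalization. In these bulk samples, a change in the share of cells that express a gene and a change in RNA per cell cannot be told apart.

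JAK1, the kinase shared by the interleukin-6, interferon and interleukin-4 receptors, was the higher of the 2 kinases in every library and rose in H1975. The gene lies on chromosome 1 at 64833229 to 64966504 (minus strand). The H1975 level was 41.3 and 43.4 FPKM in ZNF263 cells, against 24.3 and 25.8 FPKM in control cells, a log2 change of 0.73 ± 0.057 (SE, limma adjusted p = 1.50e-07). The groups were well apart in that line, and leaving out any one of its libraries gave 0.69 to 0.77. In HCC827 the level was 99.3 and 102 FPKM in ZNF263 cells, against 90.5 and 98.1 FPKM in control cells (0.094, adjusted p = 0.275). In PC9 it was 45.1 and 46.7 FPKM in ZNF263 cells, against 47.8 and 45.6 FPKM in control cells, and the groups overlapped (-0.023, adjusted p = 0.880). The change in H1975 exceeded that in PC9 by 0.76 ± 0.080 (adjusted p = 5.79e-06) and that in HCC827 by 0.64 ± 0.080 (adjusted p = 2.35e-05).

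JAK2, the kinase of the erythropoietin, growth hormone and prolactin receptors that lead to STAT5, was low in all lines and passed the test in none. It lies on chromosome 9 at 4984390 to 5128183 (plus strand). Levels in PC9 were 2.15 and 1.85 FPKM in ZNF263 cells, against 2.38 and 2.45 FPKM in control cells (-0.19 ± 0.093, limma adjusted p = 0.230). HCC827 gave 1.11 and 1.06 FPKM in ZNF263 cells, against 0.932 and 1.04 FPKM in control cells (0.069, adjusted p = 0.653). In H1975 it had 0.924 and 0.981 FPKM in ZNF263 cells, against 1.37 and 0.932 FPKM in control cells (-0.13, adjusted p = 0.234). The H1975 control libraries lay further apart than the groups, and without control library 2 the change was -0.28 (adjusted p = 0.0195).

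**Figure D1:**
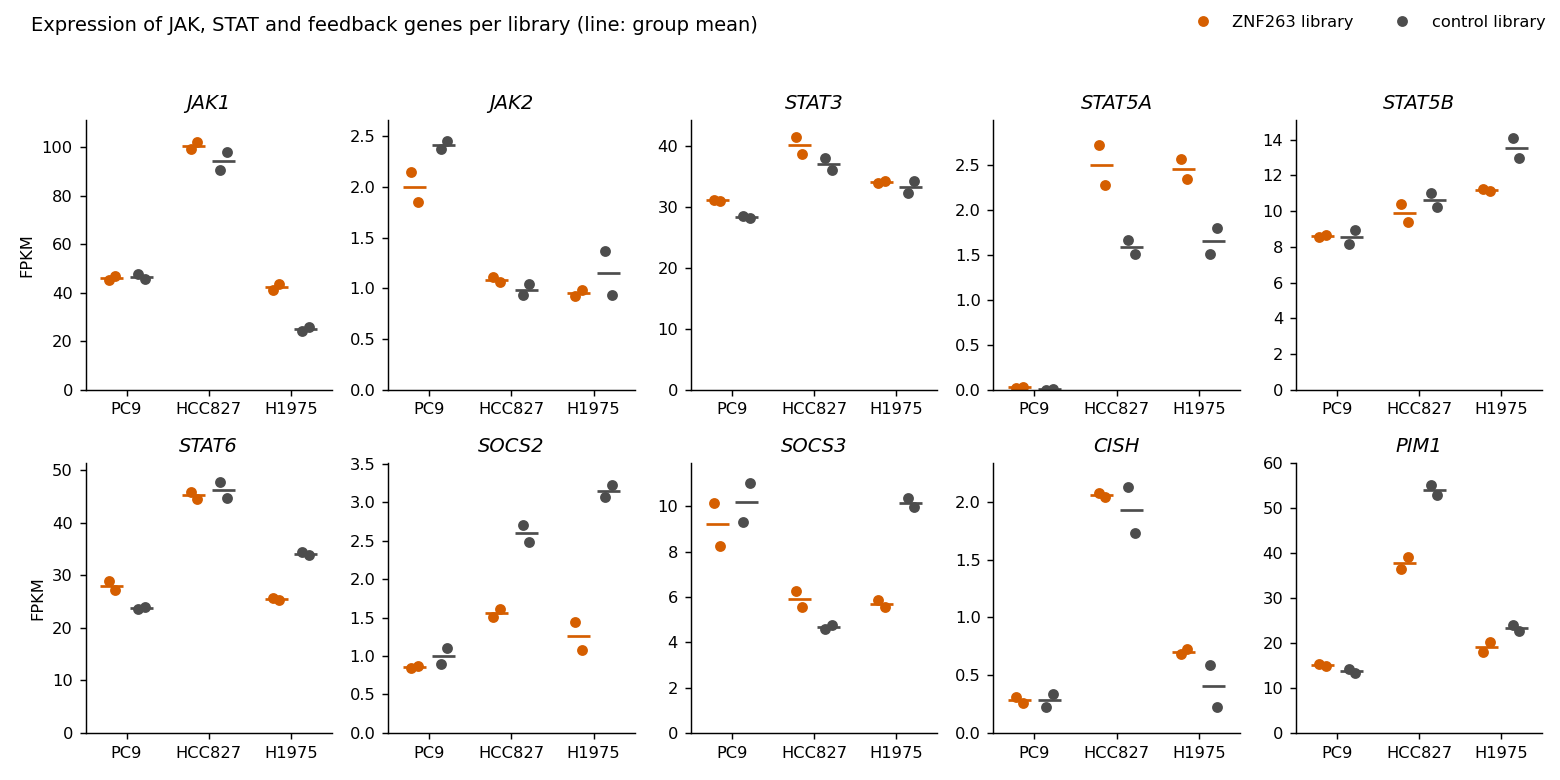
FPKM of the 10 genes in each of the 12 libraries, on linear axes that start at 0, with ZNF263 libraries left of control libraries in each line and a bar at each group's mean. JAK1 in H1975 (41.3 and 43.4 against 24.3 and 25.8 FPKM) and SOCS2 in H1975 (1.44 and 1.08 against 3.07 and 3.22 FPKM) stand apart, and STAT5A lies near 0 in PC9.

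STAT5A rose in HCC827 and H1975, while its paralog STAT5B, the more abundant of the pair in every library, did not rise in any line. STAT5A is known for signalling downstream of prolactin and lies on chromosome 17 at 42287547 to 42311943 (plus strand). ZNF263 cells of HCC827 had 2.72 and 2.28 FPKM, against 1.66 and 1.51 FPKM in control cells, a change of 0.43 ± 0.082 (limma adjusted p = 0.00319). The H1975 level was 2.56 and 2.34 FPKM in ZNF263 cells, against 1.5 and 1.79 FPKM in control cells, a change of 0.38 ± 0.082 (adjusted p = 0.00118). Neither line showed overlap between its groups. A fit on the HCC827 libraries alone gave an adjusted p of 0.0535 for the same change. In PC9 it was near 0, at 0.0245 and 0.0355 FPKM in ZNF263 cells, against 0 and 0.0107 FPKM in control cells. Those values stood for as few as 2 and 3 reads in ZNF263 cells, against 0 and 1 reads in control cells, and a difference was not detectable at this depth.

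STAT5B, the mediator of growth hormone signalling in liver, lies beside STAT5A at 42199168 to 42276707 (minus strand). Levels in H1975 were 11.2 and 11.1 FPKM in ZNF263 cells, against 14.1 and 13 FPKM in control cells, a change of -0.25 ± 0.072 (limma adjusted p = 0.00797). That fall did not pass without H1975 control library 1 (-0.20, adjusted p = 0.0799). HCC827 gave 10.4 and 9.38 FPKM in ZNF263 cells, against 11 and 10.2 FPKM in control cells (-0.095, adjusted p = 0.394). In PC9 it had 8.58 and 8.64 FPKM in ZNF263 cells, against 8.16 and 8.96 FPKM in control cells (0.0087, adjusted p = 0.981). Groups overlapped in both of these lines.

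The make-up of the STAT5 pool in FPKM followed from these values. STAT5A was 20.7% and 19.5% of the summed STAT5A and STAT5B level in ZNF263 cells of HCC827, against 13.1% and 12.9% in its control cells. In H1975 it was 18.6% and 17.4% in ZNF263 cells, against 9.64% and 12.2% in control cells. In PC9 it was 0.285% and 0.409% in ZNF263 cells, against 0% and 0.120% in control cells. STAT5B thus formed most of the pool in all 12 libraries. The paralogs share sequence: 507 of 4252 stretches of 50 bases in the longest STAT5A transcript (11.9%) and 507 of 5054 in that of STAT5B (10.03%) occur in the other gene, and the sources used here do not say how reads were split between them.

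STAT5B, STAT5A and STAT3 lie next to each other on chromosome 17, which allows each to be set beside the genes around it. Within 500 kb of the start of STAT5A, 27 other genes were tested. Their median change was -0.24 in H1975, where 20 of 27 were below 0, -0.050 in HCC827 and -0.011 in PC9. None of them rose above STAT5A in HCC827, where the highest stood at 0.30, and 2 did in H1975.

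**Figure D2:**
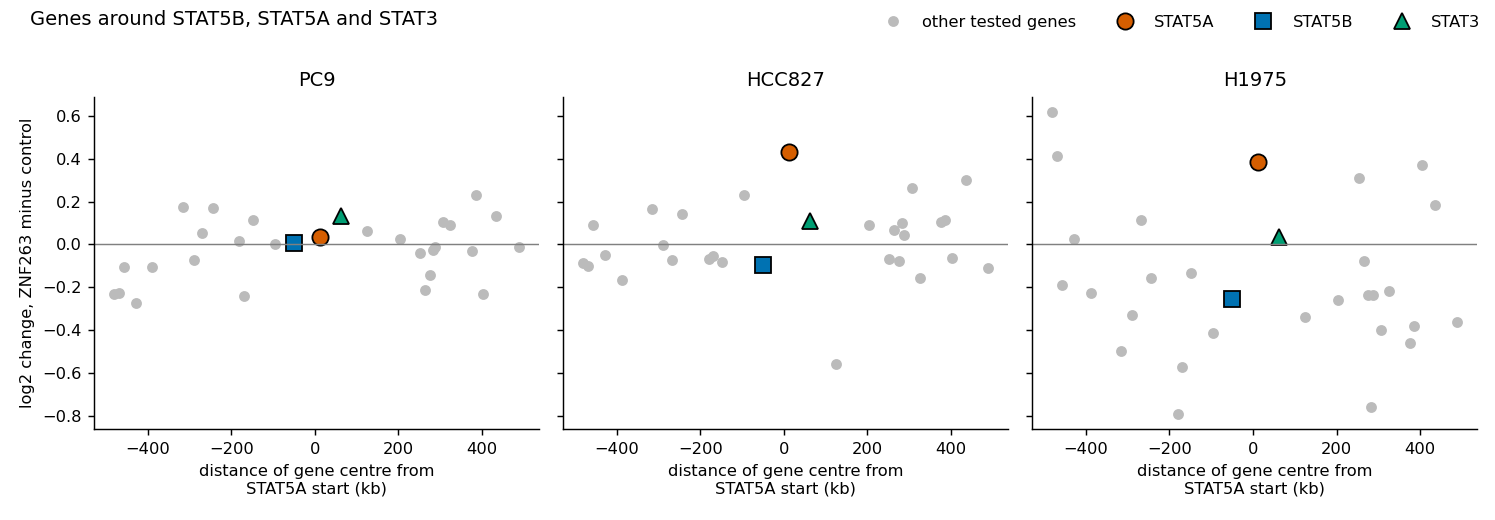
Log2 change (ZNF263 minus control) of STAT5A, STAT5B, STAT3 and the 27 other tested genes within 500 kb, by distance in kb from the start of STAT5A, in each line. In H1975 the surrounding genes centre on -0.24, near STAT5B at -0.25, whereas STAT5A stands at 0.38; in PC9 the 3 STAT genes lie among the others.

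STAT3, the factor of the interleukin-6 family, did not pass the test in any single line. It lies at 42313324 to 42388568 on chromosome 17 (minus strand). ZNF263 cells of PC9 had 31.2 and 31.1 FPKM, against 28.5 and 28.2 FPKM in control cells (0.13 ± 0.054, limma adjusted p = 0.155). The HCC827 level was 41.5 and 38.7 FPKM in ZNF263 cells, against 38.0 and 36.1 FPKM in control cells (0.11, adjusted p = 0.178). Levels in H1975 were 33.9 and 34.3 FPKM in ZNF263 cells, against 32.3 and 34.2 FPKM in control cells (0.036, adjusted p = 0.591). The change was above 0 in all 3 lines, and the groups overlapped in H1975.

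STAT6, the factor of interleukin-4 and interleukin-13, moved in opposite directions in PC9 and H1975. It lies on chromosome 12 at 57095408 to 57132139 (minus strand). PC9 gave 28.9 and 27.1 FPKM in ZNF263 cells, against 23.6 and 23.9 FPKM in control cells, a rise of 0.23 ± 0.053 (limma adjusted p = 0.0144). In H1975 it had 25.6 and 25.3 FPKM in ZNF263 cells, against 34.4 and 33.9 FPKM in control cells, a change of -0.41 ± 0.053 (adjusted p = 1.93e-05). The groups were separate in both lines, and the changes differed by -0.64 ± 0.075 (H1975 minus PC9, adjusted p = 1.44e-05). ZNF263 cells of HCC827 had 45.9 and 44.6 FPKM, against 47.7 and 44.8 FPKM in control cells, with overlap (-0.031, adjusted p = 0.738). The rise in PC9 did not pass in a fit on that line alone (adjusted p = 0.0801), nor without ZNF263 library 1 (0.19, 0.126), control library 1 (0.22, 0.0980) or control library 2 (0.24, 0.0832).

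SOCS2, a STAT5 target that damps growth hormone signalling, fell in HCC827 and by more in H1975. It lies on chromosome 12 at 93569814 to 93583487 (plus strand). The H1975 level was 1.44 and 1.08 FPKM in ZNF263 cells, against 3.07 and 3.22 FPKM in control cells, a change of -0.88 ± 0.087 (limma adjusted p = 1.55e-06). Levels in HCC827 were 1.51 and 1.61 FPKM in ZNF263 cells, against 2.70 and 2.49 FPKM in control cells, a change of -0.49 ± 0.087 (adjusted p = 0.00212). Neither line showed overlap, and the difference between them was -0.39 ± 0.12 (H1975 minus HCC827, adjusted p = 0.0164). In PC9, where the gene was low, it had 0.849 and 0.873 FPKM in ZNF263 cells, against 0.893 and 1.10 FPKM in control cells (-0.10, adjusted p = 0.542). The fall in both lines passed the test in every alternative run. In H1975 it ranged from -1.0 to -0.77 as each library of the line was left out.

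SOCS3, a STAT3 target that inhibits JAK kinases bound to the interleukin-6 receptor, fell in H1975. The gene lies on chromosome 17 at 78356778 to 78360077 (minus strand). It had 5.87 and 5.55 FPKM in ZNF263 cells of H1975, against 10.4 and 9.96 FPKM in control cells, a change of -0.73 ± 0.097 (limma adjusted p = 2.23e-05). HCC827 gave 6.24 and 5.56 FPKM in ZNF263 cells, against 4.57 and 4.76 FPKM in control cells, and the change of 0.28 did not pass (adjusted p = 0.0580), although the groups were apart. In PC9 it had 10.1 and 8.26 FPKM in ZNF263 cells, against 9.33 and 11 FPKM in control cells, with overlap (-0.13, adjusted p = 0.451). The changes in H1975 and HCC827 differed by -1.02 ± 0.14 (adjusted p = 4.35e-05).

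CISH, the inhibitor whose promoter is printed above, was under 1 FPKM in PC9 and H1975 and met the filter on low values only through HCC827. It lies on chromosome 3 at 50606490 to 50611831 (minus strand). ZNF263 cells of HCC827 had 2.08 and 2.05 FPKM, against 2.13 and 1.73 FPKM in control cells, and the groups overlapped (0.067 ± 0.11, limma adjusted p = 0.718). The H1975 level was 0.680 and 0.728 FPKM in ZNF263 cells, against 0.590 and 0.227 FPKM in control cells, a change of 0.29 ± 0.11 (adjusted p = 0.0330). At least 51 and 55 reads stood behind the ZNF263 values, against at least 45 and 16 behind the control values. The call depended on the control libraries: without H1975 control library 2 the change was 0.10 (adjusted p = 0.415) and without control library 1 it was 0.47 (0.00138). It also did not pass without ZNF263 library 1 (0.31, 0.0751) or ZNF263 library 2 (0.27, 0.118) of H1975, in a fit on that line alone (0.111) or with no filter on low values (0.0657). Levels in PC9 were 0.310 and 0.259 FPKM in ZNF263 cells, against 0.227 and 0.338 FPKM in control cells (0.0029, adjusted p = 1).

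PIM1, a kinase that supports survival and growth downstream of STAT3 and STAT5, fell in HCC827 and H1975. It lies on chromosome 6 at 37170203 to 37175426 (plus strand). HCC827 gave 36.5 and 39.1 FPKM in ZNF263 cells, against 55.1 and 53.1 FPKM in control cells, a change of -0.51 ± 0.066 (limma adjusted p = 0.000288). In H1975 it had 18.0 and 20.1 FPKM in ZNF263 cells, against 24.1 and 22.8 FPKM in control cells, a change of -0.29 ± 0.066 (adjusted p = 0.00199). The groups were separate in both lines. ZNF263 cells of PC9 had 15.3 and 15 FPKM, against 14.2 and 13.2 FPKM in control cells, and the change of 0.13 did not pass (adjusted p = 0.235). Less the change in PC9, the change in HCC827 was -0.64 ± 0.094 (adjusted p = 0.00112) and that in H1975 was -0.42 ± 0.094 (adjusted p = 0.00213). Both falls passed the test in every alternative run.

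**Figure D3:**
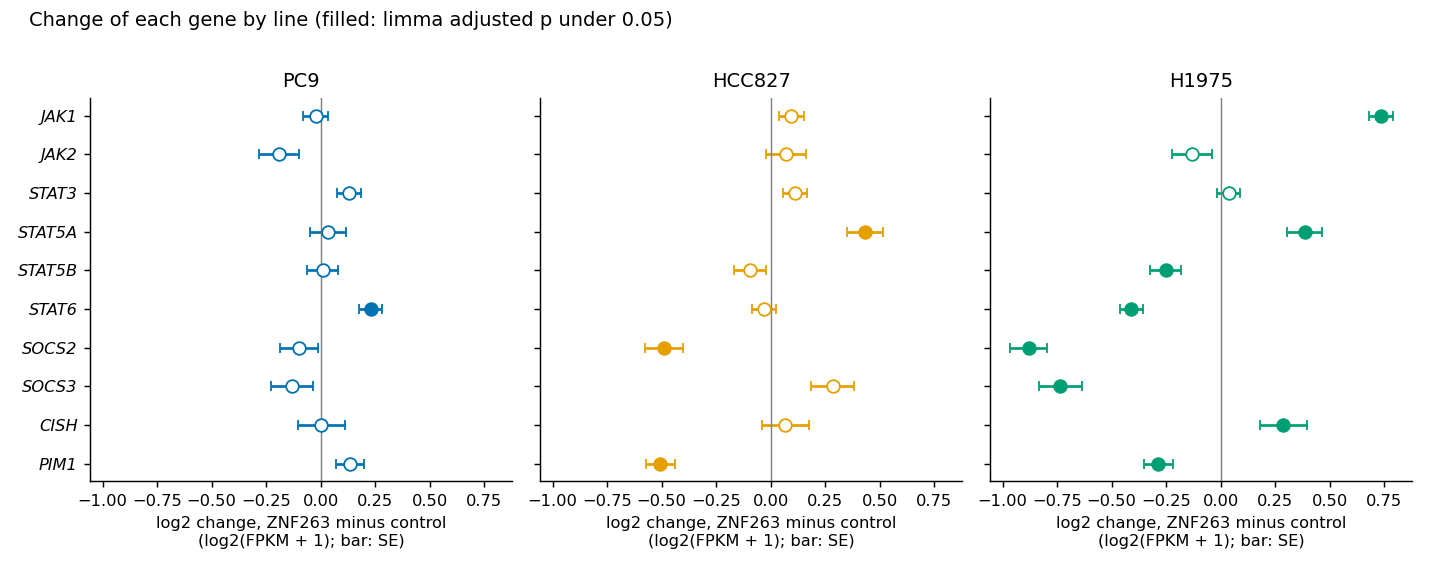
Log2 change (ZNF263 minus control, on log2 of FPKM plus 1) of the 10 genes in each line, with bars of 1 SE and filled points at a limma adjusted p under 0.05. SOCS2 (-0.88), SOCS3 (-0.73) and JAK1 (0.73) in H1975 are the farthest from 0, and only STAT6 (0.23) is filled in PC9.

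Averaged over the 3 lines, JAK1 (0.27 ± 0.033, limma adjusted p = 2.23e-05), STAT5A (0.28 ± 0.048, 0.000293, or 0.49 with a pseudocount of 0.1) and STAT3 (0.093 ± 0.031, 0.0250) were higher in ZNF263 cells. SOCS2 (-0.49 ± 0.050, 5.19e-06), PIM1 (-0.22 ± 0.038, 0.000396), SOCS3 (-0.19 ± 0.056, 0.0108) and STAT5B (-0.11 ± 0.042, 0.0369) were lower. That is 7 of 10 genes, beside 52.9% of all genes tested (28.9% higher and 23.9% lower). An average over lines can hide opposite changes: SOCS3 stood at 0.28 in HCC827 and -0.73 in H1975. The average of STAT3 did not pass with median-of-ratios scaling (0.071, adjusted p = 0.0759) nor without HCC827 ZNF263 library 1 (0.0756), H1975 ZNF263 library 2 (0.0586), PC9 control library 2 (0.0611) or H1975 control library 1 (0.0808). That of STAT5B did not pass in 8 of the 12 fits that left out 1 library, with adjusted p between 0.0650 and 0.114 in them.

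The change differed between lines for 6 of the 10 genes in an F test, namely JAK1, STAT5A, STAT6, SOCS2, SOCS3 and PIM1, beside 60.3% of all genes tested. For JAK2, STAT3, STAT5B and CISH the F test gave limma adjusted p of 0.205, 0.509, 0.103 and 0.242, which does not show that the lines were alike. Between pairs of lines, the change differed for 54.1% of all genes (H1975 minus PC9), 53.7% (H1975 minus HCC827) and 9.6% (HCC827 minus PC9). STAT5A is near 0 in PC9, and its F test (adjusted p = 0.0185) did not pass with a pseudocount of 0.1 or without any one of the PC9 libraries.

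H1975 changed at most genes, so each gene was also set beside the median of its 40 nearest tested genes on the chromosome. Neighbours of STAT6 had a median of -0.39 in H1975, near the gene's own -0.41, and the difference of -0.020 did not pass (limma adjusted p = 0.772). STAT5B less its neighbours stood at -0.0055 (adjusted p = 0.955) in H1975, and CISH at 0.16 (0.218). In contrast, JAK1 stood at 0.63 above its neighbours, STAT5A at 0.64, SOCS2 at -0.64, SOCS3 at -0.80 and PIM1, whose neighbours had a median of 0.40, at -0.69, all with adjusted p of 3.87e-05 or lower. STAT3 in H1975 was 0.29 above its neighbours (adjusted p = 0.000520), and in HCC827 it was 0.18 above them (0.0390). Less their neighbours in HCC827, SOCS2 stood at -0.52 (adjusted p = 0.00155), PIM1 at -0.51 (0.000262) and STAT5A at 0.50 (0.00134). Differences between lines were not tested after this subtraction, so the larger fall of SOCS2 in H1975 holds for the unsubtracted change only. Passing was common after this subtraction: in H1975 6938 of 12224 genes did so. The 6 examined genes that passed there therefore say little about the genes as a set. Each gene kept its own SE, so the adjusted p does not measure distance from the spread among its neighbours. The reason why neighbouring genes moved together in H1975 was not tested.

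**Figure D4:**
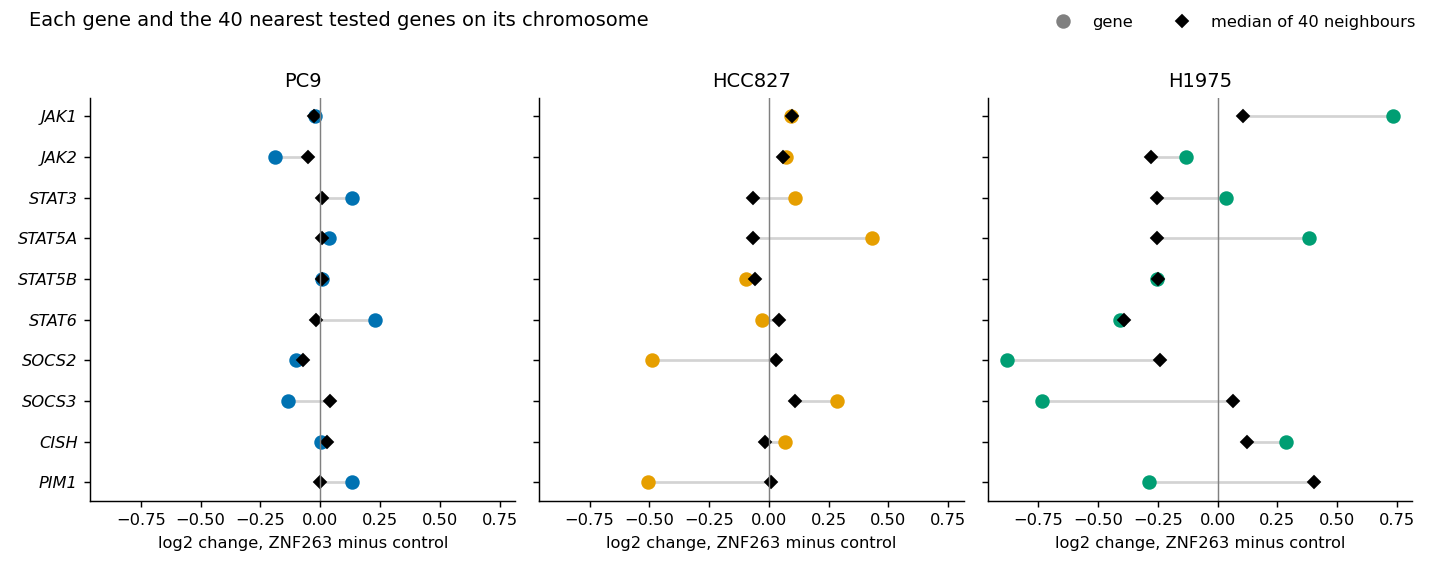
Log2 change (ZNF263 minus control) of each gene (circle) and the median of its 40 nearest tested genes (diamond) in each line. In H1975 STAT6 and STAT5B lie on their neighbours' medians of -0.39 and -0.25, while PIM1 (-0.29) lies far below its neighbours (0.40).

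The order of levels in control cells differed between genes; the lines were treated as separately made tables, so these levels are given side by side without a test. JAK1 and PIM1 were highest in HCC827, at 94.3 ± 5.35 and 54.1 ± 1.42 FPKM (SD, n = 2), and so were STAT6, STAT3 and CISH. JAK1 was lowest in H1975, at 25.1 ± 1.02 FPKM, and PIM1 was lowest in PC9, at 13.7 ± 0.677 FPKM. SOCS2 was highest in H1975, at 3.15 ± 0.106 FPKM, and lowest in PC9, at 0.997 ± 0.148 FPKM. SOCS3 stood at 10.2 ± 1.19 FPKM in PC9 and 10.2 ± 0.285 FPKM in H1975, which did not differ beyond their spread, and at 4.66 ± 0.141 FPKM in HCC827. STAT5A stood at 1.65 ± 0.204 FPKM in H1975 and 1.59 ± 0.106 FPKM in HCC827, also within their spread, and at 0.00537 FPKM in PC9. JAK2 was highest in PC9, at 2.42 ± 0.0548 FPKM, with 1.15 ± 0.309 FPKM in H1975 and 0.986 ± 0.0759 FPKM in HCC827, the last pair within their spread. STAT5B was highest in H1975, at 13.5 ± 0.804 FPKM, and lowest in PC9, at 8.56 ± 0.567 FPKM.

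Other genes followed the same pattern over the 12 libraries once the mean of each line was subtracted. The closest by Pearson's r, given as a description over libraries that share lines and vectors, were ARMCX3 (0.997) and CCDC117 (0.995) for JAK1, COG1 (0.991) and NINJ1 (0.970) for STAT5A, UBE2Q1 (0.979) for STAT5B and SCNN1A (0.984) for STAT6. For the feedback genes they were TNFAIP2 (0.981) and UBE2Z (0.980) for SOCS2, MT2A (0.970) for SOCS3 and ZNF623 (0.925) for CISH. ACTB (0.965) and PLP2 (0.964) were closest to PIM1, SPPL2B (0.955) to STAT3 and RADIL (0.891) to JAK2.

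The rest of the pathway was read from lists of textbook genes, with the 10 genes left out. Of the remaining kinases, both, TYK2 and JAK3, passed in H1975 and neither in another line. Over all genes tested, 64.2% were called in H1975, 19.5% in HCC827 and 11.3% in PC9, so these calls say little about the kinases as a set. Differences between lines were not tested for the genes of the lists. TYK2, the partner of JAK1 at interferon receptors, had 43.2 ± 0.613 FPKM in ZNF263 cells and 28.5 ± 1.10 FPKM in control cells (SD, n = 2 each; 0.58, limma adjusted p = 4.90e-06), but 0.13 less its neighbours (0.0955). JAK3 was low in H1975, at 0.847 ± 0.138 FPKM in ZNF263 cells and 0.415 ± 0.0383 FPKM in control cells. It met the filter on low values only through HCC827. It changed by 0.38 in H1975 (0.00299), and stood at -0.42 less its neighbours and at 0.87 with a pseudocount of 0.1. Of the STAT factors beyond the 10 genes, STAT2, which acts in the interferon response, and STAT4 fell in H1975 and passed in no other line. STAT2 had 4.24 ± 0.129 FPKM in ZNF263 cells of H1975 and 8.98 ± 0.776 FPKM in its control cells (-0.93, adjusted p = 3.14e-07), or -0.55 less its neighbours. STAT4 changed by -0.73 there (4.88e-05), by -0.46 less its neighbours and by -2.05 with a pseudocount of 0.1.

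Ligands and receptor chains were called most often in H1975, as were genes in general (64.2% of all genes in H1975, 19.5% in HCC827 and 11.3% in PC9). Of 8 ligands tested in each line, 2 rose and 3 fell in H1975, 3 fell in HCC827, and 1 rose and 1 fell in PC9. Their median change was -0.069 in H1975, -0.22 in HCC827 and -0.0052 in PC9. IL24 fell to 0.917 ± 0.0248 FPKM in ZNF263 cells of H1975, against 5.74 ± 0.867 FPKM in control cells (SD, n = 2 each; -1.81, limma adjusted p = 1.58e-09). This gene met the filter on low values only through the H1975 control libraries, where it was high. Its entry into the test thus depended on the group it fell from. IL6, the ligand that leads to STAT3, rose there to 7.19 ± 0.425 FPKM in ZNF263 cells, against 3.29 ± 0.522 FPKM in control cells (0.94, 4.83e-06). LIF, of the same family, fell in PC9 (-0.35, 0.000575) and HCC827 (-0.45, 8.16e-05). In H1975, a value given after it was seen, it was higher (0.28, 0.000276), where the median of its neighbours was 0.56. Of the receptor chains, 12 rose and 3 fell of 19 in H1975, 4 rose and 2 fell of 20 in HCC827, and 1 fell of 20 in PC9, with medians of 0.37, 0.15 and 0.026. IFNGR1, the ligand-binding chain of the interferon gamma receptor, had 70.0 ± 4.05 FPKM in ZNF263 cells of H1975 and 18.0 ± 0.584 FPKM in control cells (1.90, 6.90e-10). IL6R fell there to 2.20 ± 0.0578 FPKM in ZNF263 cells, against 6.96 ± 0.0723 FPKM in control cells (-1.32, 3.00e-09). In HCC827 IL7R, the interleukin-7 receptor, had the largest change among the chains (0.67, 0.000800).

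Among 15 other SOCS genes and inhibitors of the pathway, 6 rose and 2 fell in H1975, 1 rose in HCC827 and 1 fell in PC9, with median changes of 0.16, 0.089 and -0.0024. Over all genes, 64.2%, 19.5% and 11.3% were called in these lines, and the medians were 0.0025, 0.045 and 0. SOCS1, an inhibitor of JAK kinases induced by interferon, rose in H1975 (0.57, limma adjusted p = 0.000737), as did SOCS5 (0.44, 0.000775, or 0.70 less its neighbours), where SOCS2 and SOCS3 fell. PTPN1, a phosphatase that acts on JAK2 and TYK2, rose in HCC827 (0.24, 0.00636), and the same change had an adjusted p of 0.0866 in a fit on that line alone. It fell in H1975 (-0.31, 0.000150), or by 0.17 less its neighbours. PIM3 rose in H1975 to 35.3 ± 1.12 FPKM in ZNF263 cells, against 19.9 ± 0.965 FPKM in control cells (SD, n = 2 each; 0.80, 1.15e-06), or by 0.28 less its neighbours (0.00674).

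Textbook targets of STAT5, other than the feedback genes, moved in both directions. Of 6 tested, 2 rose and 4 fell in H1975, 1 rose and 3 fell in HCC827, and 1 rose and 2 fell in PC9, with median changes of -0.40, -0.27 and -0.074. The shares called over all genes were 64.2% in H1975 (32.1% higher and 32.1% lower), 19.5% in HCC827 and 11.3% in PC9. CCND1, the cell cycle regulator cyclin D1, fell in all 3 lines. It had 53.0 ± 0.634 FPKM in ZNF263 cells of H1975 and 205 ± 3.54 FPKM in its control cells (SD, n = 2 each; -1.93, limma adjusted p = 8.88e-12). Its changes in HCC827 and PC9 were -0.39 (0.000139) and -0.30 (0.00105). BCL2L1, which encodes the survival protein BCL-XL, had 51.2 ± 1.71 FPKM in ZNF263 cells of H1975 and 125 ± 3.15 FPKM in control cells (-1.27, 2.03e-09). It also fell in HCC827 (-0.36, 0.00160). MYC rose in H1975 (0.56, 6.80e-06) and fell in HCC827 (-0.51, 0.000255) and PC9 (-0.25, 0.0260). BCL6, which STAT5 is known to repress, rose in H1975 (0.74, 7.19e-07). It was also the 1 target that rose in HCC827 (0.25, 0.0201) and in PC9 (0.27, 0.0206). Neither of these smaller rises passed in a fit on its line alone (limma adjusted p = 0.168 and 0.0736).

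STAT3 targets were called in both directions too. Of 15 tested in H1975, 11 rose and 3 fell. Of 17 in HCC827, 1 rose and 3 fell, and of 17 in PC9, 5 rose and 2 fell. The medians were 0.31 in H1975, -0.00051 in HCC827 and 0.011 in PC9, beside 64.2%, 19.5% and 11.3% of all genes called and all-gene medians of 0.0025, 0.045 and 0. LCN2, a secreted iron carrier of the acute phase, rose in H1975 (1.58, limma adjusted p = 1.66e-06) and in PC9 (1.62, 2.54e-05, or 2.86 with a pseudocount of 0.1). CEBPD, a transcription factor of the acute phase, rose in H1975 (1.0, 4.83e-09) and PC9 (0.58, 1.93e-05), beside the fall of SOCS3 in H1975. MUC1 fell in H1975 (-1.40, 9.62e-08) but rose in PC9 (0.71, 0.000694, or 1.29 with a pseudocount of 0.1) and HCC827 (0.68, 0.000815). SERPINA3 fell in H1975 (-0.86, 3.63e-05, or -0.45 less its neighbours) and HCC827 (-0.54, 0.00790). CEBPB (-0.50, 0.000139) and VEGFA (-0.36, 0.00198) also fell in HCC827. Of 7 STAT6 targets, 3 rose and 3 fell in H1975, 1 fell in HCC827 and 1 rose in PC9, with medians of -0.0013, 0.042 and 0.034. MUC5AC, an airway mucin, rose to 10.3 ± 0.0697 FPKM in ZNF263 cells of PC9, against 2.65 ± 0.0705 FPKM in its control cells (SD, n = 2 each; 1.64, 8.97e-09).

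**Figure D5:**
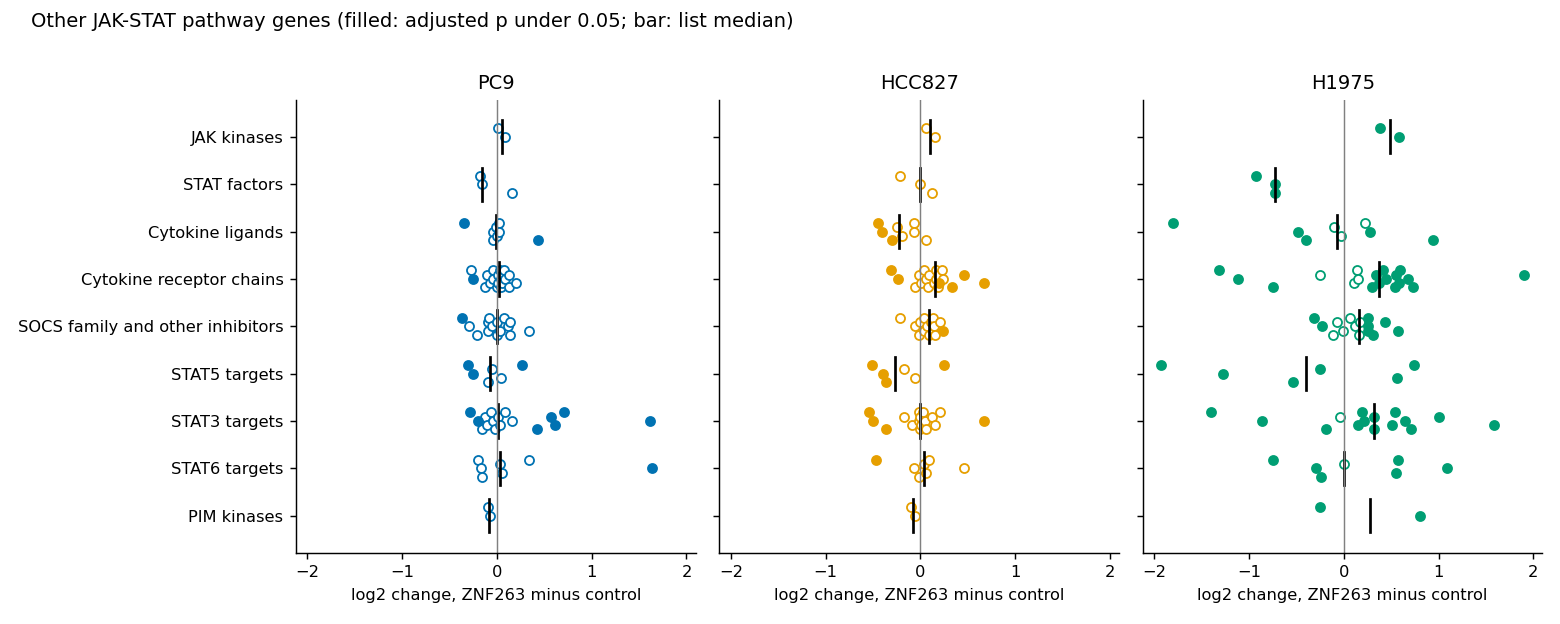
Log2 change (ZNF263 minus control) of each tested gene of the pathway lists other than the 10 genes, with filled circles at a limma adjusted p under 0.05 and a bar at the list's median. Filled circles are most frequent in H1975, where CCND1 (-1.93) and IFNGR1 (1.90) lie farthest out.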

How the data were processed

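The authors deposited FPKM values, 1 column per library, for 12 libraries. Per the submitters' processing notes, the build was GRCh38.p13. The sources used here name no aligner, counter, annotation or strand setting. Because 3383 genes had no value in HCC827 and 3339 in H1975, lines were treated as separately made tables. ZNF263 and control cells were compared within a line, and the order of control levels across lines is a description with no test. 27 entries named as dates were left out.

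FPKM values were analysed as log2(FPKM + 1), which understates changes of low genes. All 10 genes were among the 12623 with at least 1 FPKM in 2 or more libraries. STAT5A passed this filter only through HCC827 and H1975. limma 3.58.1 in R 4.3.3 was fitted to all 12 libraries at once, with 1 mean per group and a trended prior. Each gene's spread was thus pooled over the lines, and its SE was the same in each. The median SD between libraries, in log2(FPKM + 1), was 0.083 in HCC827 control cells and 0.040 to 0.050 in the other groups. Tests were two-sided, Benjamini-Hochberg adjusted over all genes. A gene was called at adjusted p under 0.05. An F test compared lines. Neighbours were the 20 nearest tested genes on each side, by GENCODE positions on GRCh38, with the limma SE kept.

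Library totals were not given. Values were whole multiples of 1 read, within 0.002 reads, for 99.8%, 99.2% and 99.0% of 500 sampled genes of PC9, HCC827 and H1975, which gave the smallest read numbers that can stand behind a value. They ranged from 2284 to 10011 for JAK1 and from 0 to 374 for STAT5A.

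The 10 genes and all lists were chosen with earlier results of these data known. The 10 genes are given whatever their change; list genes named are among the 4 largest called changes of a list in a line. For each gene the 2 tested genes with the highest Pearson r were sought. The limma fit was tested on simulated data. Alternatives were another pseudocount, no filter, 2 scalings, a fit per line, a replicate block, neighbours subtracted and each library left out.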

Additional observations from a re-analysis of the deposited data

Results flagged for a closer look

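The change between ZNF263 and control cells differed between lines in limma's F test for 6 of the 10 genes, beside 60.3% of all genes tested. The adjusted p was 8.64e-06 for JAK1, 0.0185 for STAT5A, 4e-05 for STAT6, 0.000482 for SOCS2, 0.000126 for SOCS3 and 0.00023 for PIM1. JAK1 rose in H1975 alone among the lines. STAT6 stood at 0.23 in PC9 and -0.41 in H1975, and SOCS3 at 0.28 in HCC827 and -0.73 in H1975. SOCS2 and PIM1 fell in HCC827 and H1975. STAT5A was near 0 reads in PC9, which bears on its test. With 2 libraries per group, no single library could be tested as standing apart.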

How the results depend on the processing

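Counts of called genes among the 10 stayed within 1.5 times the main count in HCC827, H1975, the average and the F test under every alternative run. In PC9 the count of 1 became 0 in a fit on that line alone. Over all genes, fits per line called 407 in PC9, 634 in HCC827 and 7812 in H1975. The main fit called 1430, 2386 and 7870. Leaving out each library gave 0 to 1 genes in PC9, 3 to 4 in HCC827, 7 to 8 in H1975, 5 to 8 in the average and 5 to 7 in the F test. No change of the 10 genes reversed and passed. JAK3 (-0.42) and IL11 (0.15) in H1975 reversed when the median of their neighbours was subtracted, which is how that alternative is made. SOCS3 in HCC827 (0.28) passed without either PC9 ZNF263 library (adjusted p = 0.0427 and 0.0425), and the STAT6 average passed with median-of-ratios scaling (-0.092, 0.0290). Deviations of same-numbered libraries correlated at 0.037 (PC9), 0.089 (HCC827) and -0.043 (H1975) over all genes tested, so no strong shared deviation was seen. Such values cannot tell whether same-numbered libraries were prepared together. With the replicate block the calls were the same genes, 1, 3, 8, 7 and 6 in number. A fit on the line alone also lost calls among the list genes with the largest called changes. In HCC827 these were PTPN1, BCL2L1, SERPINA3, BCL6, CLCF1, EPOR, LIFR, IL15RA and TGM2. In PC9 they were BCL6, MYC, MUC1, OSMR and PIAS3, and in H1975 PIM2. Low read numbers limit CISH, JAK2, SOCS2 and STAT5A.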
